A study of Homo sapiens with 4 samples.

Results

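The genes described here are CXCR4, its ligand CXCL12, the second CXCL12 receptor ACKR3, the chemokine receptors CXCR1, CXCR2, CXCR3, CXCR6, CCR1 and CCR7, and the chemokine CX3CL1. These 10 genes of the 57815 in the table were chosen by name, with the values of both cell lines already known, and their differences between the cell lines are given as a description without a test. MDA-MB-231 is a triple-negative human breast cancer cell line, and LM2-4175 (LM2 below, as in the table) is a derivative of it with high metastasis to the lung. Both were untreated and grown in the same serum-containing medium, and 2 libraries of total RNA were sequenced for each, 4 in all. The comparison answers how the transcriptome of the lung-metastatic derivative differs from that of the parental line. Each is a single line, and nothing in the labels says whether its libraries came from separate cultures. The table holds 1 FPKM (a fragment count divided by transcript length in kilobases and by the mapped fragments of the library) per gene for each line, the authors having pooled its libraries, with a lower and an upper bound. No value per library and no SD was therefore examined, and no difference below has a replicate check. The study lists the aligned read pairs of each library, fewest in a library of MDA-MB-231, and depth was not examined here.

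Chemokines are small secreted proteins that guide moving cells, and their receptors are cell surface proteins that signal through inhibitory G proteins. CXCR4 binds CXCL12, which is made by stroma of bone marrow, lung and lymph node, and the pair is known for guiding blood stem cells and for its part in the spread of breast cancer cells to organs rich in CXCL12. ACKR3 binds the same ligand without coupling to G proteins and removes it from the surroundings, whereas CX3CL1 (fractalkine) is made as a membrane protein that can both hold cells that carry its receptor CX3CR1 and be cut off as a soluble attractant.

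In LM2, CXCR4, CX3CL1 and ACKR3 were lower than in MDA-MB-231 and CCR1 was higher. CXCR4 had 9.56 FPKM in MDA-MB-231 and 0.254 FPKM in LM2, and CX3CL1 had 5.31 and 0.330 FPKM. CCR1, a receptor for inflammatory CC chemokines, went the other way, from 0.557 to 4.74 FPKM. The ligand CXCL12 was close to 0 in both cell lines, and CXCR1, CXCR2, CXCR3 and CXCR6 stayed under 0.5 FPKM in both. In RNA from whole cultures, fewer cells that express a gene and less of its RNA per cell cannot be told apart.

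The promoters of CXCR4 and CCR1 are shown first, because these receptors had the largest decrease and the largest increase of the 10 genes on the log2 scale of FPKM + 1. Both are RefSeq windows, from 250 bases before to 50 bases after a start site, that were matched without mismatches to GRCh37 (the hg19 assembly). RefSeq windows were at hand for 7 of the 10 genes and not for ACKR3, CCR7 and CX3CL1. CXCR4 has 3 windows, of which the most upstream is printed, at chr2:136875670-136875969 on the minus strand. The window of CCR1 lies at chr3:46249755-46250054, also on the minus strand. Capitals mark the letters GCATGCGC, the core of the sites of the transcription factor NRF1, on either strand, and the TATA box letters TATAAA on the strand of the gene.
CXCR4 promoter: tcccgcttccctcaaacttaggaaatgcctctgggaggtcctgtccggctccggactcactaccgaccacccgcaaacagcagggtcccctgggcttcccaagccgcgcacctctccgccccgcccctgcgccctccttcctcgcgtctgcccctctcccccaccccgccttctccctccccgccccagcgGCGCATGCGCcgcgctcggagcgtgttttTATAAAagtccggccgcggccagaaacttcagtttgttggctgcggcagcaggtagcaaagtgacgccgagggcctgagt
CCR1 promoter: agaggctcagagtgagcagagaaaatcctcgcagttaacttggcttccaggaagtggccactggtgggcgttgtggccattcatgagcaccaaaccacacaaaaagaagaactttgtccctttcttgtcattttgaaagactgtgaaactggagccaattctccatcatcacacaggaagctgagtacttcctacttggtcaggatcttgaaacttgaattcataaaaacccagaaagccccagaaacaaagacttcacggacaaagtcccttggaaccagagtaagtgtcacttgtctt
In the CXCR4 window the NRF1 core was found 2 times, on opposite strands and overlapping each other, with the first letter 59 bases before the start site. TATAAA followed, 30 bases before the start site. The CXCR4 windows not printed held 0 NRF1 cores and 0 TATA boxes. Among 35116 RefSeq promoters of the same length, 3.05% held the NRF1 core and 7.33% held TATAAA. The GC box letters GGGCGG, searched on both strands, were found 3 times in the CXCR4 window and occur in 44.95% of all promoters. The core of hypoxia response elements (ACGTG or GCGTG, both strands) was found 1 time, 39 bases before the start site, and occurs in 48.45% of all promoters. Of the CXCR4 windows not printed, the most downstream held 2 GC boxes and 2 hypoxia response cores, and the other held 0 of either. None of these letters was found in the CCR1 window, whose GC content was 45.3% against 66.7% in the CXCR4 window and a median of 58.7% over all promoters. A match of letters is a description and does not show that a factor binds.

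To be called, a gene needed a mean of 0.5 FPKM or more over both lines, a change of 1.5-fold or more after 1 FPKM had been added to each value, and bounds that did not overlap between the lines. Of 13911 genes tested in this way, 649 (4.67%) were called higher and 641 (4.61%) lower, so that 9.27% were called in either direction. The higher genes made up 50.3% of these calls, 57.3% after scaling to TPM and 64.8% after the upper quartiles had been set equal. The upper quartile scaling also moved the median log2 change of all genes tested from -0.04 to 0.11. Of the 10 chemokine axis genes, 4 passed the filter on low values and all of these 4 were called, 1 higher and 3 lower. As the genes were chosen with these values known, and as a gene low in LM2 passed the filter only through MDA-MB-231, nothing is read from this count.

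**Figure D1:**
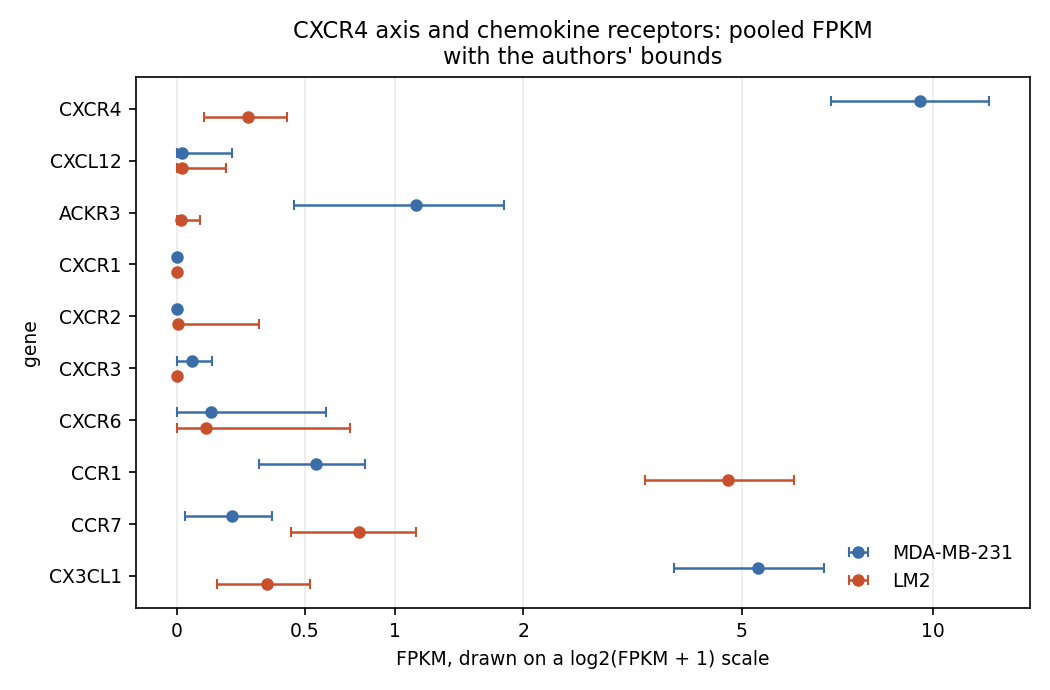
FPKM of the 10 genes in MDA-MB-231 (blue) and LM2 (red), on a log2(FPKM + 1) axis labelled in FPKM. Points are the authors' pooled values of 2 libraries and bars are the authors' bounds. The bars are apart for CXCR4, ACKR3, CCR1, CCR7 and CX3CL1.

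CXCR4 (ENSG00000121966, chromosome 2 of GRCh37, 136871919 to 136876747, minus strand) is the receptor of the axis. The authors' bounds were 6.96 to 12.2 FPKM in MDA-MB-231 and 0.0892 to 0.419 FPKM in LM2. The nearest of these bounds were 16.6-fold apart. The ratio of the FPKM values was 37.7, and the log2 change on the scale of FPKM + 1, which understates the change of low genes, was -3.07. Among the 13911 genes tested, 25 had a larger decrease. In MDA-MB-231, 45.0% of the genes tested had a lower FPKM than CXCR4, against 0.8% in LM2. CXCR4 passed the filter only through its value in MDA-MB-231, so a rank at the lower end in LM2 follows from the filter. Its exons are free of overlap with other genes.

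CXCL12 (chromosome 10, 44865613 to 44881941), the ligand of CXCR4, had 0.0173 FPKM (0 to 0.192) in the parental line, against 0.0170 FPKM (0 to 0.169) in LM2. Expression of the ligand was not detectable above 0 in either cell line at the precision of these bounds.

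ACKR3 (ENSG00000144476, chromosome 2, 237476430 to 237490997, plus strand), the scavenging receptor of CXCL12, had 1.14 FPKM (0.448 to 1.82) in MDA-MB-231, against 0.0139 FPKM (0 to 0.0760) in LM2. Its log2 change was -1.08. The ratio of the FPKM values was 81.9, larger than that of CXCR4, so which gene fell most depends on the scale. The nearest bounds were 5.90-fold apart. Its level in MDA-MB-231 was low, since 11.5% of the genes tested had a lower FPKM there. ACKR3 lay just inside the filter, with a mean of 0.575 FPKM, and was not tested when a mean of at least 1 FPKM was asked for. With a pseudocount of 0.1 in place of 1 the log2 change of ACKR3 was -3.44 and that of CXCR4 was -4.77.

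CX3CL1 (ENSG00000006210, chromosome 16, 57406389 to 57418956, plus strand) was the second gene of the set in MDA-MB-231, with 5.31 FPKM (3.84 to 6.79), against 0.330 FPKM (0.134 to 0.526) in LM2. The ratio was 16.1, the nearest bounds were 7.29-fold apart, and the log2 change was -2.25. Its receptor CX3CR1 was listed at 0 in the parental line and had 0.0192 FPKM (0 to 0.126) in LM2.

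CCR1 (ENSG00000163823, chromosome 3, 46243202 to 46249804, minus strand), which binds CCL3, CCL5 and related chemokines, had bounds of 0.297 to 0.817 FPKM in MDA-MB-231 and 3.41 to 6.08 FPKM in LM2. The ratio was 8.52, the nearest bounds were 4.17-fold apart, and the log2 change was 1.88. It ranked above 4.2% of the genes tested in MDA-MB-231 and above 30.9% in LM2. Of the genes that encode its ligands, CCL3 was listed at 0 in the parental line and had 0.0677 FPKM in LM2. CCL5 had 0.602 FPKM (0.262 to 0.943) and 0.289 FPKM (0.0730 to 0.505). Neither ligand reached a mean of 0.5 FPKM.

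CCR7 (chromosome 17, 38710021 to 38721724, minus strand), the receptor that leads cells to lymph nodes along CCL19 and CCL21, lay just outside the filter with a mean of 0.487 FPKM. It had 0.190 FPKM (0.0260 to 0.354) in MDA-MB-231, against 0.784 FPKM (0.435 to 1.13) in LM2. The bounds were 1.23-fold apart, and the log2 change of 0.58 was just under 1.5-fold, so CCR7 was not called. Without the filter and with a pseudocount of 0.1, a setting chosen after the data were seen, its log2 change was 1.61 and it was called higher. CCL19 and CCL21 were listed at 0 in both cell lines.

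The receptors of the ELR chemokines, CXCR1 and CXCR2, lie next to each other on chromosome 2 (219027564 to 219031685 and 218990012 to 219001974). CXCR1 was listed at 0 in both cell lines, and CXCR2 was listed at 0 in the parental line and had 0.00339 FPKM (0 to 0.298) in LM2. CXCR3, the receptor of interferon-induced chemokines, had 0.0480 FPKM (0 to 0.118) in the parental line and was listed at 0 in LM2. CXCR6, the receptor of CXCL16, had 0.113 FPKM (0 to 0.606) and 0.0967 FPKM (0 to 0.734), with bounds that overlap almost completely. The lower bound of these 4 receptors was 0 wherever they were listed. The authors' status of these receptors was OK in both cell lines. An exact 0 is still an estimate, so these genes are only said to be listed at 0.

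The order of the levels changed between the cell lines. In MDA-MB-231, CXCR4 stood first and CX3CL1 second, with bounds barely apart from each other, followed by ACKR3. The bounds of ACKR3 and CCR1 overlap, as do those of each further pair of neighbours in the order. In LM2, CCR1 stood first and its bounds were apart from those of CCR7, the next gene. CCR7 overlaps with CX3CL1, CX3CL1 with CXCR4, and all genes further down with their neighbours. Summed over the 8 receptors of the set, the FPKM was 11.6 in MDA-MB-231, of which CXCR4 held 82.4% and CCR1 4.80%. In LM2 the sum was 5.90 FPKM, of which CXCR4 held 4.31% and CCR1 80.5%. These shares leave out CCRL2, a receptor outside the set. It alone exceeded the sum in each cell line, with 19.8 FPKM in MDA-MB-231 and 11.8 FPKM in LM2.

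**Figure D2:**
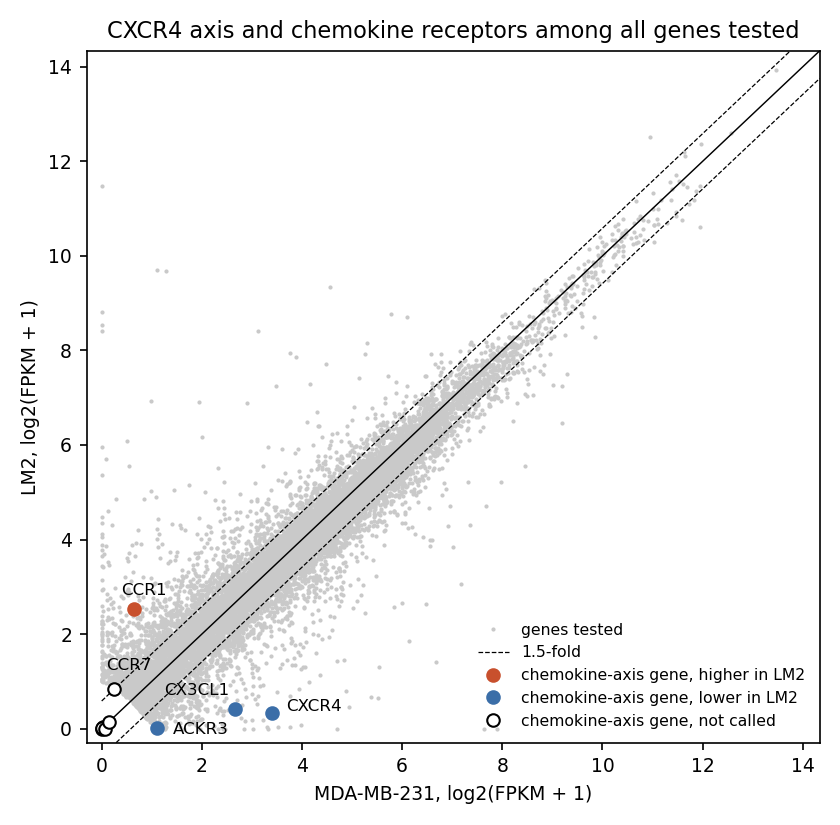
log2(FPKM + 1) in LM2 against MDA-MB-231 for the 13911 genes tested (grey) and the 10 chemokine axis genes (larger points, blue where called lower in LM2, red where called higher, open where not called). The solid line marks equal values and the dashed lines 1.5-fold. CXCR4 and CX3CL1 lie far below the dashed lines and CCR1 far above them.

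The genes whose pair of values lay nearest to that of CXCR4, by the distance of log2(FPKM + 1) over the 2 cell lines, were CTD-2561J22.5, TP53I11, ZBED6CL, TRBC2 and SNORA14B. Their distances were 0.07 to 0.34. TP53I11, a protein-coding gene, had 8.32 FPKM (5.43 to 11.2) in MDA-MB-231, against 0.140 FPKM (0 to 0.449) in LM2. TRBC2, which encodes a constant region of the T cell receptor beta chain, had 10.5 FPKM (7.18 to 13.8) and 0.0173 FPKM (0 to 0.0845). With 2 values per gene, such likeness is only a description of the levels.

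TRBC2 and the chemokine receptors are used mostly by white blood cells, so genes that mark these cells were examined beside them. Of 13 such genes, 11 were under 0.5 FPKM in both cell lines, and CD3E, CD2 and NKG7 were among those listed at 0 in both. PTPRC, the common antigen of white blood cells, had 0.0767 FPKM (0 to 0.345) in MDA-MB-231, against 0.0263 FPKM (0 to 0.279) in LM2. The 13 genes summed to 4.64 and 2.87 FPKM, most of it from CSF1R (2.92 and 0.790 FPKM) and CD14 (1.17 and 1.75 FPKM), and neither of these was called. Among genes of endothelium and fibroblasts, 4 were found in the table, of which CDH5, VWF and DCN were under 0.5 FPKM in both cell lines. PDGFRB fell from 9.44 FPKM (3.86 to 15.0) to 1.91 FPKM (0.587 to 3.24). These 4 genes summed to 9.63 and 2.08 FPKM, and their part in the differences of the chemokine receptors was not tested. The labelled cell type was checked as well. VIM (1355 and 1768 FPKM) and EGFR (41.4 and 54.3 FPKM) were expressed as in a mesenchymal triple-negative line, and ESR1 and PGR were under 0.1 FPKM in both. ERBB2 was detected at 35.0 and 22.8 FPKM and was not called, and EPCAM, an epithelial surface protein gene, fell from 12.3 to 4.93 FPKM.

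Outside the 8 receptors of the set, 15 further chemokine receptor genes were examined. Of these, 14 were under 0.5 FPKM in both cell lines, and the highest of these 14 was CCR10 in LM2 with 0.284 FPKM (0 to 1.08). CCRL2, an atypical receptor that binds chemerin, was the exception, with 19.8 FPKM (14.6 to 25.0) in MDA-MB-231, against 11.8 FPKM (8.45 to 15.1) in LM2. It was thus the most highly expressed of all 23 receptors in both cell lines. Its log2 change was -0.71, and it was not called because the bounds overlap.

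The genes encoding ligands of these receptors were examined as a list of 21. Of these, 7 were tested and 4 (57.1%) were called, against 9.27% of all genes tested. As the list was chosen with earlier results of these data known, nothing is read from this share. All 4 genes called were higher in LM2, and all encode ligands of CXCR2. The CXCR2 gene itself was listed at 0 in the parental line and was under 0.5 FPKM in LM2. The 4 genes lie together on chromosome 4, between 74606236 and 74964913. CXCL5, CXCL6 and PPBP lie among them and were under 0.5 FPKM in both cell lines. CXCL8 (IL8 in the table) rose from 7.75 FPKM (5.33 to 10.2) to 338.2 FPKM (259.7 to 416.7). CXCL1 rose from 2.86 to 118.9 FPKM, CXCL3 from 1.11 to 28.8 FPKM and CXCL2 from 4.03 to 44.7 FPKM. CXCL16, the ligand of CXCR6, had 1.44 FPKM (0 to 2.95) and 0.650 FPKM (0 to 1.58), and was not called. MIF and HMGB1, proteins that can act through CXCR4, had log2 changes of -0.03 and 0.10. Exons of other genes overlap 94.1% of the exon bases of MIF, so its level is uncertain.

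**Figure D3:**
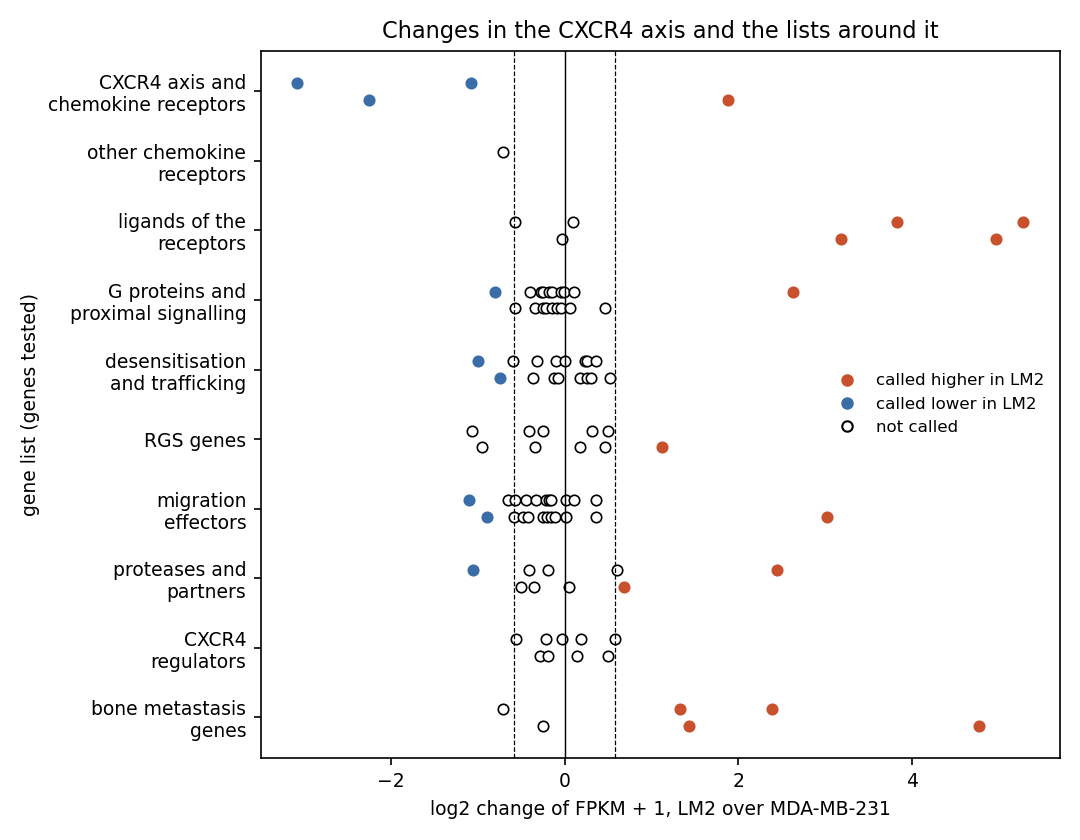
log2 change of FPKM + 1, LM2 over MDA-MB-231, of each gene tested in the CXCR4 axis and in 9 lists around it. Points are genes (blue called lower in LM2, red called higher, open not called), the solid line marks no change and the dashed lines 1.5-fold. The ligands and the bone metastasis genes hold 4 red points each, and no regulator of CXCR4 is filled.

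Of 22 genes for G proteins and the enzymes next to them, 19 were tested and 2 (10.5%) were called, close to the 9.27% of all genes. Their median log2 change was -0.15, against -0.04 over all genes tested. PLCB1, a phospholipase C that G proteins activate, rose from 0.0722 FPKM (0 to 0.270) to 5.62 FPKM (2.11 to 9.14). GNB2, a G protein beta subunit, fell from 217.2 FPKM (157.8 to 276.7) to 124.3 FPKM (95.0 to 153.6). The call of GNB2 was lost after TPM and upper quartile scaling. GNAI2, the most abundant inhibitory G protein alpha subunit of the list, had 245.6 FPKM (187.4 to 303.8) and 223.0 FPKM (169.2 to 276.8).

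Genes that switch receptors off or sort them inside the cell were all 16 tested, with a median log2 change of -0.03. The 2 genes called (12.5%, near the 9.27% of all genes tested) were both lower in LM2. ARRB1, which encodes a beta-arrestin, went from 17.9 FPKM (13.3 to 22.5) to 10.3 FPKM (7.49 to 13.1), and its call was lost after TPM and upper quartile scaling. Exons of other genes overlap 25.8% of its exon bases. VPS4B, an ATPase of the pathway that delivers receptors to the lysosome, fell from 21.2 FPKM (14.6 to 27.8) to 10.2 FPKM (7.51 to 12.8). Of 13 RGS genes, which shorten G protein signals, 10 were tested and 1 (10.0%) was called, close to the same 9.27%. This was RGS17, which rose from 0.683 FPKM (0.312 to 1.05) to 2.67 FPKM (1.56 to 3.78).

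Among 24 genes that carry chemokine signals to the cytoskeleton, 22 were tested, 1 was called higher and 2 lower. These made up 13.6%, near the 9.27% of all genes tested, and the median log2 change was -0.21 against -0.04. The exchange factor genes VAV1 and VAV2 went in opposite directions. VAV1, normally confined to blood cells, rose from 0.448 FPKM (0.112 to 0.783) to 10.8 FPKM (6.87 to 14.7), and VAV2 fell from 23.9 FPKM (18.4 to 29.4) to 12.4 FPKM (9.42 to 15.4). LIMK1, a kinase that inactivates cofilin, fell from 63.6 FPKM (48.9 to 78.4) to 29.1 FPKM (22.3 to 36.0).

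Proteases that cut chemokines and proteins that partner with CXCR4 formed a list of 11, of which 9 were tested. Of these, 2 were called higher and 1 lower (33.3% in all, against 9.27% of all genes tested). This list too was chosen with earlier results known, and nothing is read from the share. The median log2 change was -0.19, against -0.04 over all genes. MMP2, which cleaves CXCL12, rose from 0.177 FPKM (0 to 0.457) to 5.404 FPKM (3.44 to 7.37). MMP9 went from 0.189 FPKM (0.0543 to 0.324) to 0.907 FPKM (0.477 to 1.34), with 18.4% of its exon bases shared with an antisense gene. ADAM10, a sheddase of CX3CL1 and CXCL16, fell from 79.4 FPKM (57.9 to 100.9) to 37.7 FPKM (27.4 to 48.0). The other sheddase of CX3CL1, ADAM17, had 15.0 FPKM (10.4 to 19.7) and 15.6 FPKM (11.4 to 19.8). CD74, the MIF receptor that pairs with CXCR4, was at 280.7 FPKM (216.4 to 345.0) and 219.7 FPKM (169.3 to 270.1), and was not called.

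Of 9 genes for factors known to act on CXCR4 transcription, all were tested and 0 were called, with a median log2 change of -0.03 and a range of -0.55 to 0.58. With 9.27% of all genes called, a count of 0 among 9 is near the general share. HIF1A, the hypoxia-induced activator, had 216.2 FPKM (123.1 to 309.4) in MDA-MB-231, against 238.7 FPKM (125.1 to 352.2) in LM2. RELA, a subunit of NF-kB, had 61.2 FPKM (45.2 to 77.2) and 53.7 FPKM (26.6 to 80.8). NRF1, whose core letters stand in the CXCR4 window above, had 10.5 FPKM (6.84 to 14.1) and 6.82 FPKM (4.72 to 8.92). The levels of these transcripts say nothing of the activity of the proteins.

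CXCR4 is also known from bone-homing sublines of MDA-MB-231, in which it is high together with a small group of other genes. Of 7 genes of that group other than CXCR4, 6 were tested and 4 (66.7%) were called. All 4 were higher in LM2 and thus opposite to CXCR4, against 4.67% of all genes tested that were called higher. These genes too were chosen with earlier results known, so nothing is read from the share. The other tested genes were not called, FST with 29.2 and 17.5 FPKM (log2 change -0.71) and CTGF with 174.2 and 146.3 FPKM (-0.25), both lower in value in LM2 like CXCR4. MMP1, a collagenase, rose from 22.6 FPKM (17.1 to 28.2) to 643.3 FPKM (484.0 to 802.7). IL11, a cytokine of the IL-6 family, rose from 16.2 to 88.6 FPKM, ADAMTS1 from 2.03 to 7.16 FPKM and FGF5 from 4.37 to 12.5 FPKM. The bounds of ADAMTS1 were only 1.04-fold apart.

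The protein-coding genes tested that start within 1 Mb of the 4 genes called were examined. Beside CXCR4 all 5 genes tested lay on the side of lower coordinates, and 0 of them were called. Their log2 changes ran from -0.60 to -0.04 with a median of -0.29, so all 5 values lay below 0 and nearer to it than that of CXCR4. The nearest was DARS, an aminoacyl-tRNA synthetase gene 133.1 kb away, with 107.1 FPKM (81.3 to 133.0) and 70.4 FPKM (53.4 to 87.3). Beside ACKR3, 3 genes were tested, and the collagen gene COL6A3, 846.5 kb away, was called lower (12.7 to 2.51 FPKM). Beside CX3CL1, 3 of 32 genes were called and all 3 were higher, the metallothionein genes MT1F and MT1X and the adhesion receptor gene GPR56. The median of the 32 genes was -0.03.

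Beside CCR1, 1 of 12 genes was called, TMEM158, which was higher at a distance of 982.0 kb. The median of the 12 genes was 0.03. CCR1 lies in the cluster of chemokine receptor genes on chromosome 3, and none of the receptor genes around it was called. CCR3 had 0.00507 FPKM (0 to 0.242) in MDA-MB-231, against 0.0827 FPKM (0 to 0.408) in LM2, CCR2 had 0.111 FPKM (0 to 0.273) and 0.0278 FPKM (0 to 0.124), and CCRL2 had the values given above. In all, 5 of the 52 genes near the 4 called genes were called, against 9.27% of all genes tested.

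**Figure D4:**
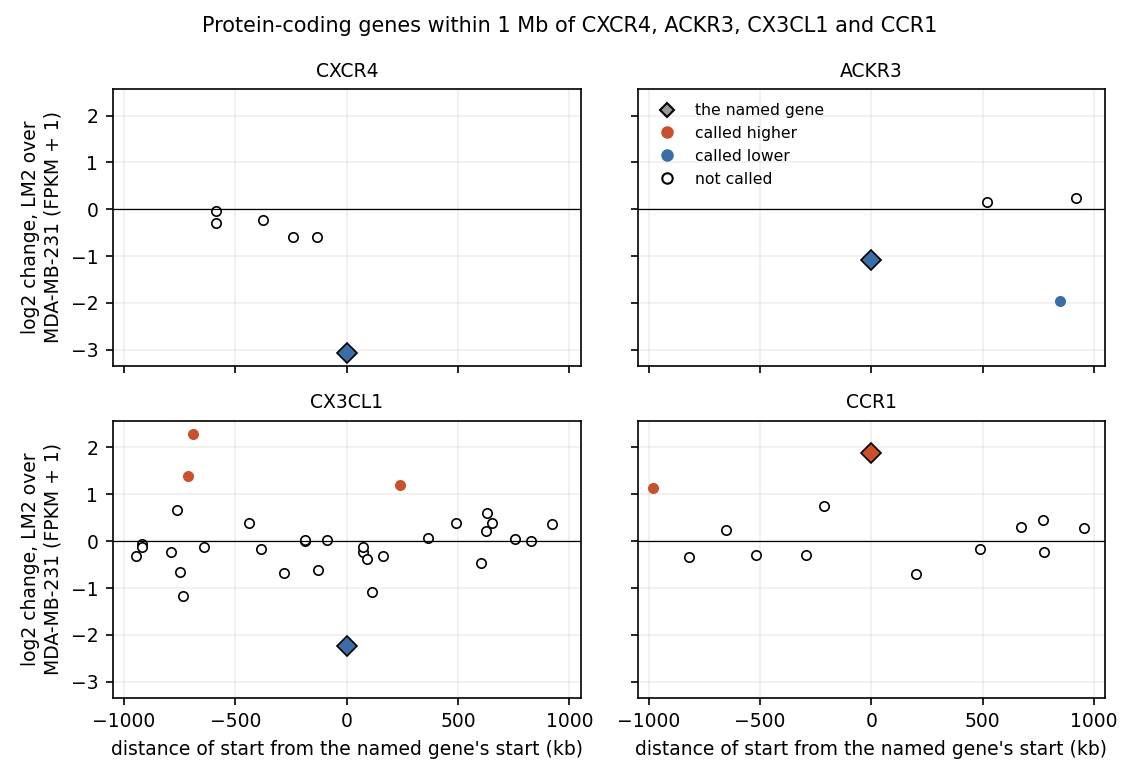
log2 change of FPKM + 1, LM2 over MDA-MB-231, of protein-coding genes tested (circles, filled where called) against the distance of their start from that of CXCR4, ACKR3, CX3CL1 or CCR1 (diamonds), in kb along the chromosome. The diamonds of CXCR4, CX3CL1 and CCR1 lie beyond the genes around them in their own direction, and MT1X, near CX3CL1, moved as far the other way. COL6A3 moved further than ACKR3.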

How the data were processed

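RNA-Seq of MDA-MB-231 and LM2-4175 was analysed, 2 libraries per cell line. Per the study's methods and the labels, TopHat 2.0 was used by the authors for alignment to hg19, and Cufflinks with the GENCODE 19 annotation for quantification. Deposited were FPKM values with their bounds, which the authors computed per cell line from the pooled libraries. What the bounds cover (counting error or also the spread of libraries), how library sizes were scaled and whether strand was used are not given in the sources used here. The 8 genes with a status other than OK were left out.

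The change of a gene was the log2 of its FPKM + 1 in LM2 minus that in the parental line, taken over the whole table. Software was pandas 2.3.3, NumPy 2.4.6, Matplotlib 3.10.9 and Python 3.11.15. At the median gene tested the upper bound exceeded the FPKM by 38.6% in MDA-MB-231 and 38.1% in LM2. Positions and exon overlaps on either strand were taken from GENCODE 44 on GRCh37, which held 13555 of the 13911 genes tested. Whether a call would hold between separate libraries was not tested, because the authors had pooled the libraries of each cell line. The genes and the 9 lists (138 genes) were chosen with earlier results of these data known. Named are all 10 genes, the genes called in each list, the 2 highest genes where none was called, the 5 genes nearest to CXCR4 and its nearest neighbour. Any further gene in the text was picked with its values in view.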

Additional observations from a re-analysis of the deposited data

How the results depend on the processing

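CXCR4, ACKR3, CX3CL1 and CCR1 kept their direction and their call under each alternative in which they were tested. There were 10 such alternatives for CXCR4, CX3CL1 and CCR1 each and 9 for ACKR3. Only TPM scaling, upper quartile scaling and the fold of 2 could have removed the call of a gene still tested. The other settings relax a criterion, enlarge the log2 change or leave the call as it was. Over these alternatives the log2 change of CXCR4 ran from -5.18 to -2.98, that of ACKR3 from -5.59 to -1.03, that of CX3CL1 from -3.97 to -2.15 and that of CCR1 from 1.88 to 3.07, and the pseudocount moved them most. With no filter and a pseudocount of 0.1, chosen after the data were seen, CCR7 was called higher (1.61). The calls over all genes numbered 1290 of 13911 tested. They went to 764 of 9519 with a mean of at least 5 FPKM, 853 of 13911 with a fold of 2 and 3074 of 13911 with the fold alone. With a mean of at least 5 FPKM, none of the 10 chemokine axis genes was tested. The genes called there were 1 of 15 G protein genes tested, 0 of 7 RGS genes and 1 of 6 proteases and partners. With TPM and with upper quartile scaling, 1 of 19 G protein genes and 1 of 16 desensitisation genes was called. Over all 13911 genes the calls were 1282 and 1300 with these scalings. With a fold of 2, 1 of 19 G protein genes and 0 of 16 desensitisation genes were called. With the fold alone, 1 of 1 other chemokine receptors and 3 of 10 RGS genes were called. Among the genes near the 4 called genes, 16 of 52 were. These counts are to be compared with the count over all genes at the same setting, and nothing is read from them. The fewer calls at higher thresholds follow from fewer genes passing them, and the larger counts with the fold alone from leaving out the bounds. The calls lost with the scalings were those of GNB2 and ARRB1. Their nearest bounds were only 1.03-fold and 1.02-fold apart before scaling. No paired analysis was possible because the table holds 1 value per cell line, and no library could be left out for the same reason. Where CXCL12, CXCR2, CXCR3 and CXCR6 had a value above 0, the bounds were wide against it and limit what can be said. CXCR1 in both lines, CXCR2 in MDA-MB-231 and CXCR3 in LM2 had both bounds at 0. Their exact 0 thus carries no stated error.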
